A study of Mus musculus with 8 samples.

Results

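The 9 Kruppel-like factor genes Klf2, Klf3, Klf4, Klf6, Klf7, Klf9, Klf10, Klf12 and Klf13 were followed in blood stem and progenitor cells of leukemic and of normal chimeric mice. They are 9 of the 18193 genes that the arrays measured through a probe set with a single gene symbol, and 35 of the 34945 such probe sets belong to them. The genes are listed by name, with no threshold on measured values, but the list was drawn up with earlier results of these data known. Where a gene had several probe sets, the one whose mean across all 8 arrays was largest stands for it, and the others served as a check. Levels are log2 expression values, so a difference of 1 is a 2-fold change. A level can be compared between samples for 1 probe set, but not between probe sets.

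Kruppel-like factors are transcription factors that bind GC-rich DNA and CACCC boxes through zinc fingers at their C-terminal end. The family falls into activators (Klf2, Klf4, Klf6 and Klf7 here), repressors that recruit the corepressor CtBP (Klf3 and Klf12), and factors that bind the corepressor Sin3 (Klf9, Klf10 and Klf13). In blood, Klf2 is known for keeping lymphocytes quiescent, Klf4 for the monocyte lineage and Klf1, the founding member, for red cell genes. Several members, Klf2, Klf4, Klf6 and Klf10 among them, can be induced quickly by stimuli, like the immediate-early genes Fos and Egr1.

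The study used 8 arrays in 4 groups of 2. All animals were chimeras in which CD45.1+ hosts had received CD45.1+ marrow together with an equal number of CD45.2+ marrow cells. In leukemic mice the CD45.2+ cells carried the transgenes BCR-ABL, which encodes the kinase behind chronic myeloid leukaemia, and SCL-tTA, a tetracycline-controlled activator under a regulatory element of stem and progenitor cells. Normal mice were made without BCR-ABL, and whether their marrow carried SCL-tTA is not stated in the labels. Sorted cells were CD45.1+ and labelled non-transformed in all 4 groups, and the marker does not tell graft from host. The design text gives the sort as 4 weeks after removal of the tetracycline water, in naming the HSC. HSC here are CD150+ CD48- cells within the KSL gate (Kit+, Sca-1+, lineage negative), and KSL are CD45.1+ cells of the whole gate, which contains the HSC. Age, strain and the number of animals behind an array are not given in the labels. Replicates are not said to come from separate animals, so p-values measure only the spread between these samples. In the leukemic groups that spread may be technical. In both normal groups the replicates differed in sex-linked genes, as given below, so they were not repeats of the same sample. The cells were bulk samples, in which fewer cells of a type and less RNA per cell cannot be told apart.

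The labelled populations were checked against marker genes. All 12 measured markers of long-term HSC were higher in HSC than in KSL on every array, in normal and in leukemic mice. Slamf1, which encodes the sort marker CD150, is among them and is no independent check. The summed linear level of the 12 markers was 5826 to 8990 in HSC and 842 to 1490 in KSL. Markers of granulocyte-monocyte progenitors ran the other way, at a summed 1853 to 7055 in HSC and 32344 to 45457 in KSL. HSC arrays were noisier than KSL arrays, with a median standard deviation between replicates of 0.20 and 0.21 log2 units against 0.11 and 0.09. Replicate 1 of both normal groups had a male pattern, with Xist at 5.79 and 3.67 against 11.63 to 11.99 on the other 6 arrays, so sex is unevenly spread over the disease groups.

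Windows before a transcript start of 4 members on which the results turn are shown because the family binds CACCC boxes. Each stretch is the 250 bases before the transcript start in RefSeq, GRCm38.p6, written 5′ to 3′ along the gene's strand, with CACCC or its reverse complement GGGTG in capitals. The Klf3 stretch lies at chr5:64803271-64803520 on the plus strand, Klf4 at chr4:55532476-55532725 on the minus strand, Klf9 at chr19:23140976-23141225 on the plus strand and Klf12 at chr14:100149797-100150046 on the minus strand. The Klf12 window precedes an internal transcript start, since RefSeq places the gene at chr14:99866181-100285891, and it is not the region before the gene's outermost start.
Klf3: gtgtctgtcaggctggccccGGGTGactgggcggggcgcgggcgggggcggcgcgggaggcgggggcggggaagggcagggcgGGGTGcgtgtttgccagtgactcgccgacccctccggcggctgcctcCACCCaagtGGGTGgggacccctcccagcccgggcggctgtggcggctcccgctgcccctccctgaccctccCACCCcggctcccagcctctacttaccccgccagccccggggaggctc
Klf4: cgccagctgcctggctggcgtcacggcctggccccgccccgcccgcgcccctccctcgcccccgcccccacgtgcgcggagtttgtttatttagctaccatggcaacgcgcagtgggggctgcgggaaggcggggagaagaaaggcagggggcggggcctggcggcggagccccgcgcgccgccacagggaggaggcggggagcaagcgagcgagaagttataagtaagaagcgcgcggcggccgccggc
Klf9: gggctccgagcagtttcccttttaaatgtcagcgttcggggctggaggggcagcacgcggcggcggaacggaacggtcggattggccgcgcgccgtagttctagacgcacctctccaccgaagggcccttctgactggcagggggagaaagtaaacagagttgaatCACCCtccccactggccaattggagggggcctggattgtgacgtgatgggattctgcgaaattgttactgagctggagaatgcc
Klf12: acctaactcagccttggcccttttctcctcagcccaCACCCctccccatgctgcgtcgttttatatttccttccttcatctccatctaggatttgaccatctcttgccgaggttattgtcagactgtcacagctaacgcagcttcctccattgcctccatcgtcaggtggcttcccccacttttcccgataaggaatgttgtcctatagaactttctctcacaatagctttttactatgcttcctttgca
Klf3 held 5 such boxes, Klf9 and Klf12 held 1 each and Klf4 held 0. Of all 32851 promoters in the table, 52% held at least 1 and 0.667% held 5 or more. The GC box GGGCGG, counted on both strands, occurred 6 times in Klf3, 4 times in Klf4 and 0 times in Klf9 and Klf12, and 32.7% of all promoters held at least 1. The GC content was 78.4%, 74.0%, 59.6% and 48.0% for Klf3, Klf4, Klf9 and Klf12. Of the 9 genes, 8 were matched by symbol in the promoter table, and Klf10 was not among them. The letters describe these windows and were not tested for binding.

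Of the 9 genes, 0 passed limma at an adjusted p under 0.05 in any of the 5 planned comparisons. In HSC of leukemic against normal mice 0 of 9 passed, with 0.0989% of all genes passing, and 1 of 9 had an unadjusted p under 0.05, with 13.8% of all genes. In KSL the corresponding counts were 0 of 9 beside 0.044% and 1 of 9 beside 7.95%. For the HSC difference minus the KSL difference they were 0 of 9 beside 0.0055% and 1 of 9 beside 9.09%. HSC against KSL gave 0 of 9 beside 1.8% and 3 of 9 beside 16.2% in normal mice. In leukemic mice it gave 0 of 9 beside 5.86% and 5 of 9 beside 23%. Limma was used for all of these counts, with 1 spread per gene shared by the 4 groups, although HSC arrays were noisier. With array weights, which let arrays count unequally, 2 genes instead of 18 passed for leukemic against normal HSC. In KSL 125 passed instead of 8, and 0 of the 9 members were among them. The 2 HSC-against-KSL comparisons averaged, 4 arrays against 4, passed 2 of 9 genes, Klf9 and Klf12, beside 9.68% of all genes, and 4 of 9 had an unadjusted p under 0.05, beside 26.5%. That average, and the same average of leukemic against normal (0 of 9, beside 0.0824%, with 2 of 9 at an unadjusted p under 0.05 beside 12.6%), were added after the values had been seen.

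**Figure D1:**
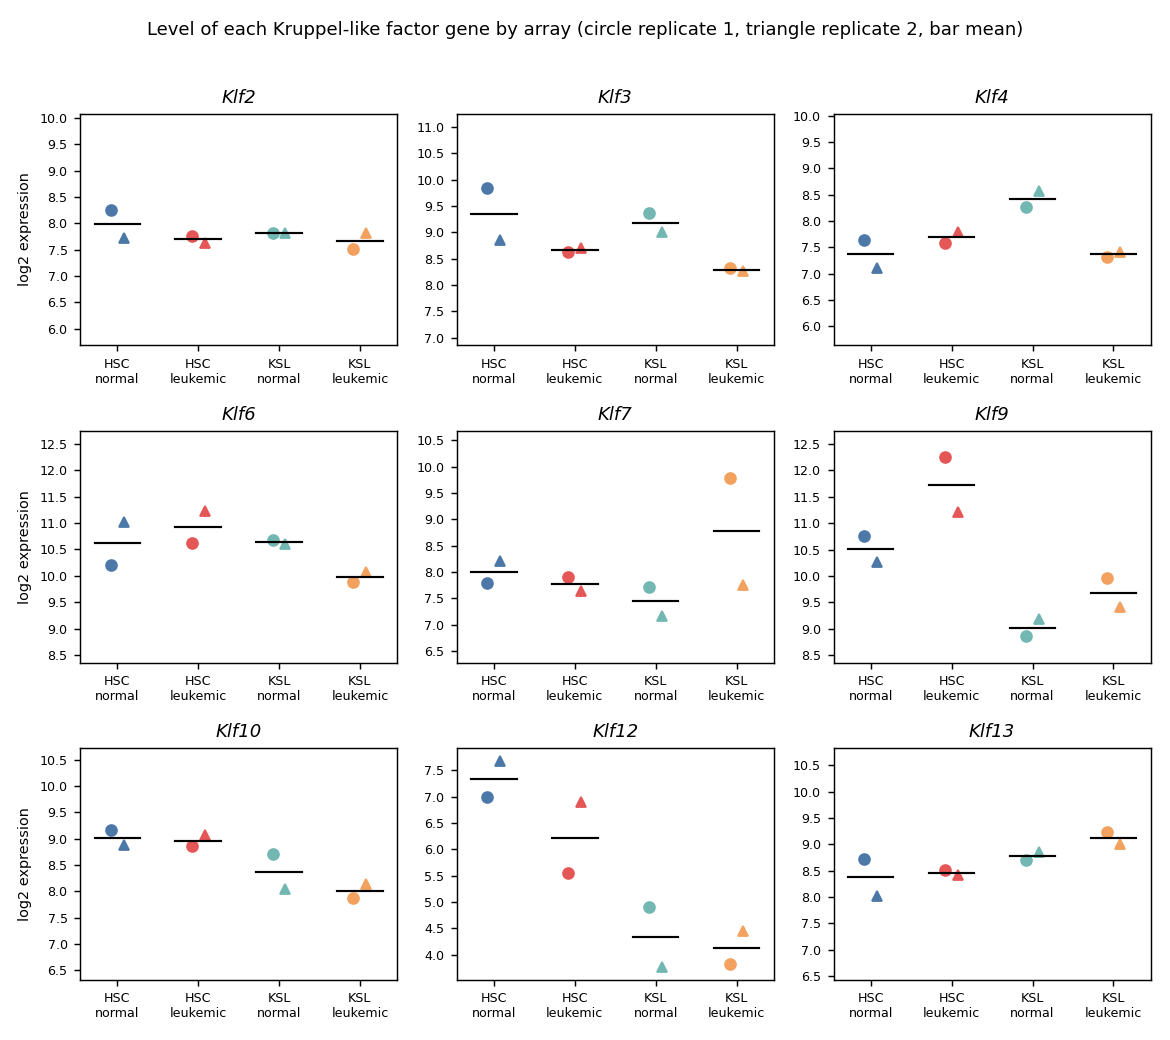
Log2 expression (vertical axis, a window of equal height in each panel) of the 9 genes on the 2 arrays of each group (horizontal axis), with circles for replicate 1, triangles for replicate 2 and bars for group means. The probe sets used are shown. By these, Klf9, Klf10 and Klf12 lie higher on all 4 HSC arrays than on all 4 KSL arrays. Klf3 lies lower on all 4 arrays of leukemic mice than on all 4 of normal mice.

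Klf9, which binds Sin3 and is known as a target gene of glucocorticoid and thyroid hormone, was higher in HSC than in KSL. Its level was 10.76 and 10.26 in HSC of normal mice and 12.25 and 11.21 in HSC of leukemic mice. In KSL it was 8.85 and 9.18 in normal and 9.96 and 9.40 in leukemic mice. The 4 groups thus ran, from high to low, leukemic HSC, normal HSC, leukemic KSL and normal KSL, and no neighbouring groups overlapped. HSC exceeded KSL by 1.49 ± 0.44 (SE of the fit, n = 2 a group; adjusted p = 0.204) in normal mice and by 2.05 ± 0.44 (adjusted p = 0.075), or 4.13-fold, in leukemic mice. Averaged over both, Klf9 was 3.41-fold higher in HSC, a log2 difference of 1.77 ± 0.31 (adjusted p = 0.0372).

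The averaged Klf9 call was kept without HSC leukemic replicate 1 (adjusted p = 0.0436) or 2 (0.0283). It was lost without HSC normal replicate 1 (0.0798) or 2 (0.0672), KSL normal replicate 1 (0.123) or 2 (0.105) and KSL leukemic replicate 1 (0.108) or 2 (0.128), while the difference stayed between 1.51 and 2.03 in these fits. With a term for the male-pattern arrays the adjusted p was 0.0745 and without those arrays 0.207. With the replicate number as a block it was 0.0503. With the mean of all Klf9 probe sets the difference was 0.93 (0.0957). In leukemic mice alone, Klf9 passed after scaling to a common median (0.0383), when genes at the table's lowest value on any array were left out (0.0252) and without the lowest 40% of genes (0.0212).

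Klf9 also lay higher on both arrays of leukemic mice in each population, but did not pass. Leukemic minus normal was 1.22 ± 0.44 in HSC (adjusted p = 0.336, unadjusted p = 0.0408) and 0.67 ± 0.44 in KSL (adjusted p = 0.919). Without HSC leukemic replicate 1 the HSC difference was 0.70. Summed markers of neutrophils and monocytes moved with it in HSC, at 10105 and 554 in normal and 19086 and 13268 in leukemic mice, with 8 of 8 measured markers above 0 in the difference and 0 at the floor on all arrays. Markers of granulocyte-monocyte progenitors did too, at 1853 and 2353 against 4558 and 7055, with 6 of 6 above 0. The log2 signal of 3 prime minus 5 prime probe sets, a reading of RNA quality, was 0.78 and 0.83 for Gapdh and -2.04 and -1.74 for Tfrc in normal HSC. In leukemic HSC it was 1.19 and 1.03 for Gapdh and -0.355 and -0.75 for Tfrc. In KSL, Gapdh was at 0.89 and 0.74 in normal and 0.73 and 0.75 in leukemic mice. Tfrc was at -1.28 and -1.58 in normal and -1.65 and -1.68 in leukemic KSL. Actb ran from -0.53 to -0.37 over all arrays. The part of these markers and readings in the HSC differences of Klf9 and Klf12 was not tested. Nor was that of the readings in any difference between HSC and KSL.

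The 7 probe sets of Klf9 differed in size. HSC minus KSL was above 0 for 7 of 7 in normal mice, from 0.30 to 2.04, and for 6 of 7 in leukemic mice, from -0.74 to 2.05. Leukemic minus normal was above 0 for 5 of 7 in HSC, from -0.22 to 1.29, and for 6 of 7 in KSL, from -0.21 to 1.67. Tested probe set by probe set, the averaged HSC minus KSL passed for 1 of 7 probe sets of Klf9 and 3 of 5 of Klf12, beside 7.96% of all probe sets.

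Klf12, a CtBP-binding repressor first described at the AP-2 alpha gene, was also higher in HSC than in KSL. Its level was 6.997 and 7.68 in HSC of normal mice and 5.55 and 6.89 in HSC of leukemic mice. In KSL it was 4.90 and 3.76 in normal and 3.83 and 4.44 in leukemic mice. All 4 HSC arrays lay above all 4 KSL arrays, while the KSL groups overlapped each other. HSC exceeded KSL by 3.01 ± 0.65 (adjusted p = 0.123), or 8.04-fold, in normal mice and by 2.08 ± 0.65 (adjusted p = 0.155) in leukemic mice. The average was 2.55 ± 0.46 (adjusted p = 0.0402), or 5.84-fold. With the mean of its 5 probe sets the averaged difference was 1.08 (0.0169), and the median over the probe sets was 0.85. The KSL levels of 3.76 to 4.90 on the probe set used lie near the lowest value of the table, 3.32. The other probe sets reached that value on some arrays, mostly of KSL, which narrows the spread entering their mean.

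The averaged Klf12 call was kept without HSC leukemic replicate 1 (adjusted p = 0.0395). It was lost without HSC normal replicate 1 (0.0685) or 2 (0.0937), HSC leukemic replicate 2 (0.0622), KSL normal replicate 1 (0.0788) or 2 (0.111) and KSL leukemic replicate 1 (0.148) or 2 (0.119), with differences between 2.21 and 2.88. It was also lost with array weights (0.0619), the replicate block (0.0752), the male-pattern term (0.0791) and without the male-pattern arrays (0.126). In the normal mice alone, Klf12 passed with genes at the table's lowest value on any array left out (0.0356), and with the mean of its 5 probe sets (difference 1.38, 0.0482).

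Within HSC, Klf12 was lower on both arrays of leukemic mice than on both of normal mice, by 1.12 ± 0.65 on the log2 scale (adjusted p = 0.541). Without HSC leukemic replicate 1, the lower array, the value was -0.45. Of the 12 long-term HSC markers 10 were below 0 in the same comparison, with a median of -0.66 and summed levels of 8713 and 8990 in normal against 6091 and 5826 in leukemic HSC, and their part in the Klf12 difference was not tested. All 5 probe sets gave a value below 0 in this comparison, from -1.12 to -0.10. Its other probe sets were at the floor, the lowest value of the table, on 1, 3, 5 and 7 of 8 arrays, which bounds their differences. In KSL the difference was -0.20 ± 0.65 (adjusted p = 1), and without KSL normal replicate 1 it was 0.37.

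Klf10, the TGF-beta-inducible early gene, was the third member with all HSC arrays above all KSL arrays. Its level was 9.17 and 8.87 in HSC of normal mice and 8.86 and 9.07 in HSC of leukemic mice, so the HSC groups overlapped. In KSL it was 8.71 and 8.04 in normal and 7.88 and 8.14 in leukemic mice, again overlapping. The difference leukemic minus normal was -0.06 ± 0.27 in HSC (adjusted p = 1) and -0.37 ± 0.27 in KSL (adjusted p = 0.939). HSC exceeded KSL by 0.64 ± 0.27 (adjusted p = 0.345) in normal and 0.95 ± 0.27 (adjusted p = 0.127) in leukemic mice, and by 0.80 ± 0.19 (adjusted p = 0.0728) on average. The average passed with a term for the male-pattern arrays (0.0461), when genes at the table's lowest value on any array were left out (0.037) and without the lowest 40% of genes (0.0331). Klf10 has 1 probe set. In all, 3 of 9 members, Klf9, Klf10 and Klf12, thus had all 4 HSC arrays above all 4 KSL arrays, beside 9.4% of all genes, and 0 of 9 had them below, beside 7.44% (16.8% in either direction). That holds for the probe sets used, while arrays overlapped on most other probe sets of Klf9 and some of Klf12.

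**Figure D2:**
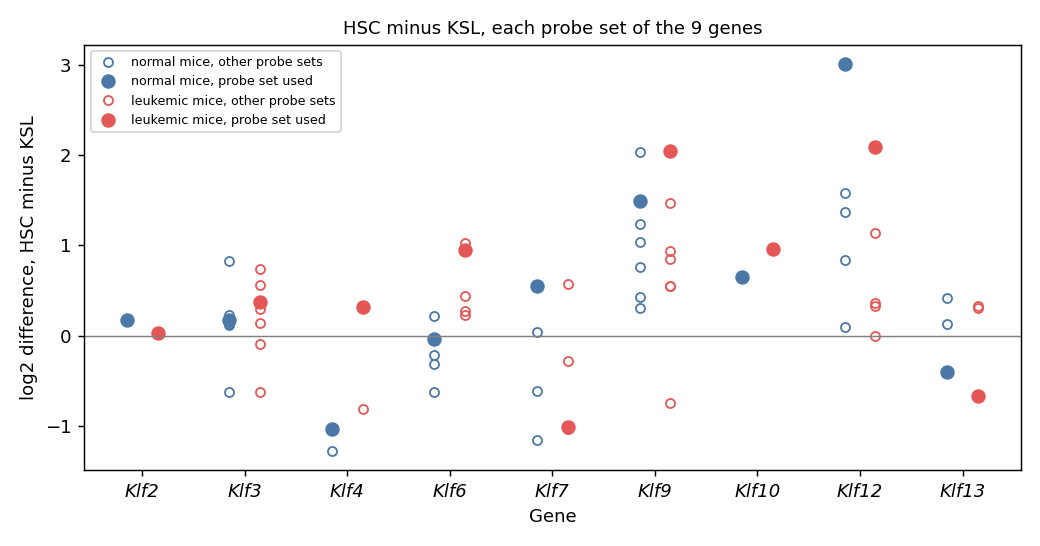
Log2 difference HSC minus KSL (vertical axis) of each of the 35 probe sets of the 9 genes (horizontal axis), in normal mice (blue) and leukemic mice (red), with filled points for the probe set used and open points for the others. The probe sets of Klf9 in normal mice lie between 0.30 and 2.04 and those of Klf12 between 0.10 and 3.01. Those of Klf3, Klf6, Klf7 and Klf13 lie on both sides of 0 in normal mice. In leukemic mice those of Klf3, Klf4, Klf7, Klf9 and Klf13 do.

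Klf13, the last Sin3-binding member, ran opposite to Klf9 and Klf10 on its main probe set. Its level was 8.73 and 8.02 in HSC of normal, 8.50 and 8.41 in HSC of leukemic, 8.70 and 8.85 in KSL of normal and 9.23 and 9.01 in KSL of leukemic mice. KSL of leukemic mice lay above each other group. HSC minus KSL was -0.66 ± 0.25 in leukemic mice (adjusted p = 0.212) and -0.40 ± 0.25 in normal mice (adjusted p = 0.536). Both of its other probe sets had the opposite sign in each of these comparisons, so its direction is not settled. The average was -0.53 ± 0.18 (adjusted p = 0.147), and it passed without HSC normal replicate 1, at -0.71 (0.0292). Leukemic minus normal was 0.34 ± 0.25 in KSL (adjusted p = 0.939) and 0.08 ± 0.25 in HSC (adjusted p = 0.985), with all 3 probe sets above 0 in each.

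Klf4, an activator or repressor according to context and a factor of monocytes, stood apart in KSL of normal mice. Its level there was 8.26 and 8.56, against 7.32 and 7.42 in KSL of leukemic mice. In HSC it was 7.645 and 7.11 in normal and 7.59 and 7.79 in leukemic mice, which overlapped. KSL of leukemic mice were 2.06-fold lower than KSL of normal mice, a log2 difference of -1.04 ± 0.22 (adjusted p = 0.322, unadjusted p = 0.00568). Leaving out each array in turn kept the difference between -1.20 and -0.89 with adjusted p from 0.221 to 0.984. Limma with array weights gave an adjusted p of 0.0637 and with KSL arrays alone 0.175. With the male-pattern term it was 0.464 and with the replicate block 0.481. The second probe set gave -1.18 in the same comparison, and its arrays did not overlap either. Summed markers of neutrophils and monocytes were 5223 and 3568 in KSL of normal and 8732 and 5833 in KSL of leukemic mice, with 8 of 8 above 0. Those of macrophages and dendritic cells were 1124 and 2007 against 733 and 746, with 5 of 7 below 0. Those of multipotent progenitors were 8811 and 7021 against 4189 and 4016, with 6 of 6 below 0. Those of long-term HSC were 1490 and 1360 against 881 and 842, with 10 of 12 below 0, and those of megakaryocytes 2024 and 3516 against 1067 and 1313, with 5 of 5 below 0. Of the T and NK cell markers 7 of 8 were below 0, while their sum was 3632 and 4367 against 4674 and 3666. Among these lists 1 marker, Gzma of the T and NK cell list, was at the floor on all arrays. The part of these markers in the KSL differences of Klf4 and Klf6 was not tested.

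In normal mice HSC had less Klf4 signal than KSL, with a difference of -1.03 ± 0.22 (adjusted p = 0.115, unadjusted p = 0.00591) and -1.27 on the second probe set. In leukemic mice HSC minus KSL was 0.32 ± 0.22 (adjusted p = 0.46) and -0.81 on the second. In HSC the probe sets disagreed on leukemic against normal, at 0.31 ± 0.22 (adjusted p = 0.608) and -0.72. The HSC difference minus the KSL difference was 1.35 ± 0.31 (adjusted p = 0.354, unadjusted p = 0.00796) for Klf4 and 0.47 on its second probe set. A difference in response between HSC and KSL was therefore not shown for Klf4.

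Klf6, an activator induced on injury and stimulation, was in KSL at 10.69 and 10.61 in normal and 9.87 and 10.07 in leukemic mice, without overlap. In HSC it was 10.21 and 11.02 in normal and 10.62 and 11.23 in leukemic mice, with overlap. Leukemic minus normal was -0.67 ± 0.34 in KSL (adjusted p = 0.792) and 0.31 ± 0.34 in HSC (adjusted p = 0.772), and the HSC value was -0.10 without HSC normal replicate 1. All 5 probe sets of Klf6 had the same sign within each comparison, from -0.67 to -0.18 in KSL and from 0.25 to 0.52 in HSC. HSC exceeded KSL in leukemic mice by 0.95 ± 0.34 (adjusted p = 0.198), with 5 of 5 probe sets above 0, and the difference was -0.03 ± 0.34 (adjusted p = 1) in normal mice.

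**Figure D3:**
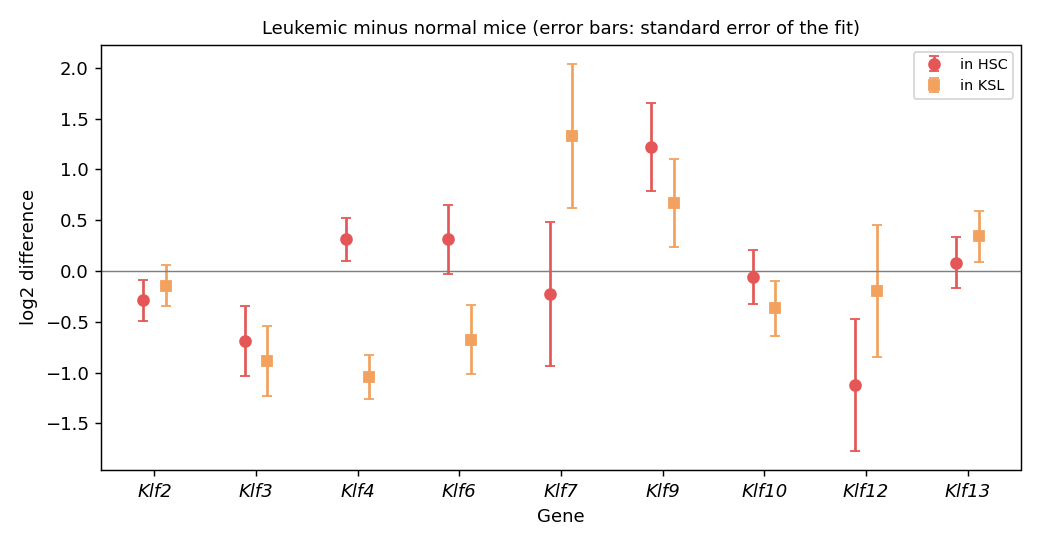
Log2 difference, leukemic minus normal (vertical axis), of the 9 genes (horizontal axis) in HSC (circles) and KSL (squares), with bars for the standard error of the fit, 2 arrays a group. Klf3 lies below 0 and Klf9 above 0 in both populations, while Klf4 and Klf6 are at 0.31 in HSC and at -1.04 and -0.67 in KSL, and none passed.

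The immediate-early genes are set beside Klf2, Klf4, Klf6 and Klf10, the members named above as quickly inducible. In KSL these 4 were at -0.14, -1.04, -0.67 and -0.37 for leukemic minus normal, with overlap of arrays for Klf2 and Klf10. Of the immediate-early genes, 16 of 17 were below 0 there, with a median of -0.62 beside 0.00 for all genes, and 13 of 17 lay lower without overlap, beside 24.1% of all genes. The marker lists of long-term HSC (10 of 12), erythroid cells (5 of 6) and megakaryocytes (5 of 5) were mostly below 0 in the same comparison. So were those of multipotent progenitors (6 of 6), T and NK cells (7 of 8), B cells (5 of 6), macrophages and dendritic cells (5 of 7) and stromal and endothelial cells (5 of 7). Lists of granulocyte-monocyte progenitors (5 of 6), neutrophils and monocytes (8 of 8) and mast cells and basophils (5 of 6) were mostly above 0. The part of these markers was not tested. Limma passed 0 of 17 there, with 9 at an unadjusted p under 0.05, beside 7.95% of all genes. In HSC 9 of 17 were higher and 8 lower, with a median of 0.02, and again 0 passed limma, with 2 at an unadjusted p under 0.05, beside 13.8%. In leukemic mice 7 of 17 passed as higher in HSC than in KSL and 0 as lower, beside 5.86% of all genes, of which 569 were higher and 498 lower. Dusp1, a phosphatase of MAP kinases, exceeded KSL by 0.70 ± 0.04 (adjusted p = 0.00911), the AP-1 genes Jund and Jun by 1.44 ± 0.12 (0.012) and 1.09 ± 0.10 (0.0141), and the nuclear receptor gene Nr4a1 by 3.32 ± 0.33 (0.017). In normal mice 1 of 17 passed, beside 1.8% of all genes, Dusp1, at 0.47 ± 0.04 (0.0258).

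**Figure D4:**
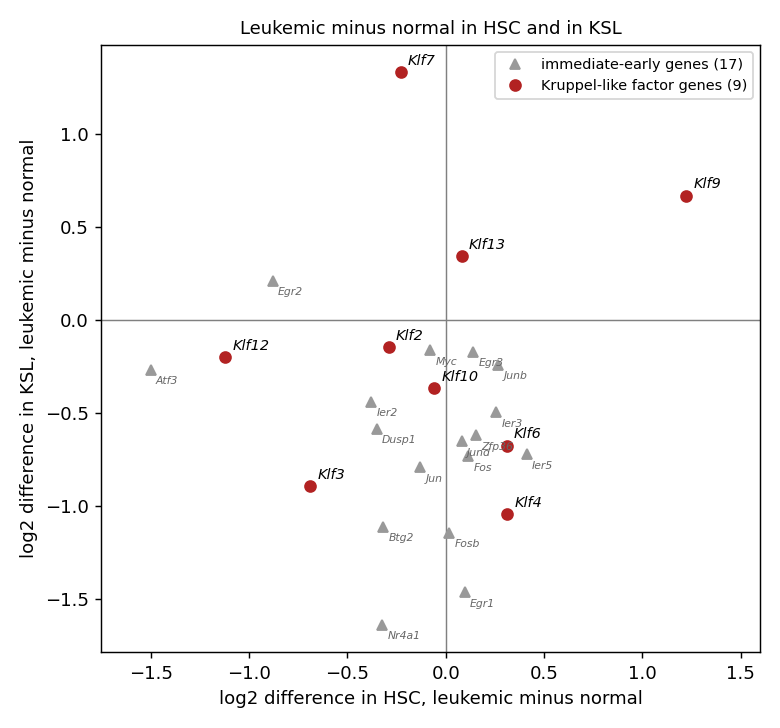
Log2 difference, leukemic minus normal, in HSC (horizontal axis) and in KSL (vertical axis) for the 9 Kruppel-like factor genes (circles) and 17 immediate-early genes (triangles), each point 1 gene. Klf2, Klf4, Klf6 and Klf10 lie below 0 in KSL, where 16 of 17 immediate-early genes also lie below 0, and Klf4 and Klf6 lie at 0.31 in HSC.

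Klf3, a CtBP-binding repressor known from red cells and B cells, was lower on every array of leukemic mice by its main probe set. Its level was 9.84 and 8.86 in HSC of normal mice and 8.63 and 8.70 in HSC of leukemic mice. In KSL it was 9.36 and 9.00 in normal and 8.32 and 8.26 in leukemic mice. The difference was -0.69 ± 0.35 in HSC (adjusted p = 0.48) and -0.89 ± 0.35 in KSL (adjusted p = 0.643), and -0.79 ± 0.24 on average, 1.73-fold lower (adjusted p = 0.307, unadjusted p = 0.0256). Klf3 was the single member of 9 with all 4 leukemic arrays below all 4 normal ones, beside 2.15% of all genes, and 0 of 9 had them above, beside 1.48% (3.63% in either direction). On each other probe set of Klf3 the leukemic and normal arrays overlapped.

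The size in HSC rested on 1 array. Without HSC normal replicate 1, a male-pattern array, the HSC difference of Klf3 was -0.19 (adjusted p = 0.696), and with a term for the male-pattern arrays it was -0.35 in HSC and -0.55 in KSL. Of 7 probe sets, 6 were below 0 in HSC and 6 in KSL, with medians of -0.23 and -0.42. HSC minus KSL was 0.17 ± 0.35 (adjusted p = 0.928) in normal mice, with overlap, and 0.37 ± 0.35 (adjusted p = 0.606) in leukemic mice, without overlap.

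Klf1, the red cell member outside the 9, had the pattern most like Klf3 over the 8 arrays (Pearson r = 0.978). Its level was 9.62 and 7.38 in HSC of normal, 6.96 and 6.96 in HSC of leukemic, 8.47 and 7.10 in KSL of normal and 5.41 and 5.66 in KSL of leukemic mice. Leukemic minus normal was -1.54 ± 0.86 in HSC (adjusted p = 0.525) and -2.25 ± 0.86 in KSL (adjusted p = 0.634). The summed level of 6 measured erythroid markers, Klf1 among them and 0 of them at the floor on all 8 arrays, was 11553 and 5990 in HSC of normal against 4464 and 5246 in HSC of leukemic mice. In KSL it was 5871 and 3148 against 1027 and 1419. Of the 6 markers, 6 were below 0 in HSC and 5 in KSL. The part of these markers in the Klf3 difference was not tested.

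Klf7, an activator studied in neurons and lymphoid leukaemia, was set apart by a single array. Its level was 9.79 and 7.76 in KSL of leukemic and 7.73 and 7.17 in KSL of normal mice, a difference of 1.33 ± 0.71 (adjusted p = 0.821), and 0.31 without KSL leukemic replicate 1. In HSC it was 7.79 and 8.21 in normal and 7.90 and 7.63 in leukemic mice, which overlapped, with a difference of -0.23 ± 0.71 (adjusted p = 0.986). HSC minus KSL was 0.55 ± 0.71 (adjusted p = 0.823) in normal and -1.01 ± 0.71 (adjusted p = 0.479) in leukemic mice. The 4 probe sets ranged from -0.23 to 2.02 in HSC and from 0.29 to 1.33 in KSL for leukemic minus normal.

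Klf2, the quiescence factor of lymphocytes, did not separate the groups. Its level was 8.25 and 7.73 in HSC of normal, 7.77 and 7.64 in HSC of leukemic, 7.82 and 7.81 in KSL of normal and 7.52 and 7.83 in KSL of leukemic mice. The groups overlapped in each of the 4 pairwise comparisons. Leukemic minus normal was -0.29 ± 0.20 in HSC (adjusted p = 0.616) and -0.14 ± 0.20 in KSL (adjusted p = 1). HSC minus KSL was 0.175 ± 0.20 (adjusted p = 0.792) in normal and 0.03 ± 0.20 (adjusted p = 1) in leukemic mice. Klf2 has 1 probe set.

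The HSC difference minus the KSL difference, given above for Klf4, was positive for 4 other members, at 0.99 ± 0.48 for Klf6, 0.55 ± 0.62 for Klf9, 0.31 ± 0.38 for Klf10 and 0.20 ± 0.49 for Klf3. It was negative for the other 4, at -1.56 ± 1.00 for Klf7, -0.92 ± 0.92 for Klf12, -0.26 ± 0.35 for Klf13 and -0.14 ± 0.29 for Klf2. Limma gave these 8 adjusted p-values from 0.64, for Klf6, to 0.993, for Klf3.

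Arrays did not overlap between leukemic and normal HSC for 3 of 9 members, beside 32.7% of all genes. Of these 1, Klf9, was higher, beside 16%, and 2, Klf3 and Klf12, were lower, beside 16.7%. In KSL 6 of 9 did not overlap, beside 44.5%, with Klf7, Klf9 and Klf13 higher, beside 20.5%, and Klf3, Klf4 and Klf6 lower, beside 24.1%. HSC against KSL gave 5 of 9 in normal mice, beside 43.5%, with 4 higher, beside 24.2%, and 1 lower, beside 19.3%. In leukemic mice it gave 7 of 9, beside 51.4%, with 6 higher, beside 28.2%, and 1 lower, beside 23.2%. The median difference of the 9 was -0.06 and -0.20 for leukemic minus normal in HSC and KSL, and 0.175 and 0.37 for HSC minus KSL in normal and leukemic mice. The median over all genes was 0.00, 0.00, 0.00 and 0.01.

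Other genes of the family and its partners were taken from lists. Of 17 other Kruppel-like and Sp genes 14 were measured, Klf14 and Sp7 were at the floor on all 8 arrays, and 0 passed in the 5 planned comparisons. The 2 with the smallest unadjusted p were Sp6, at 0.64 ± 0.11 for HSC minus KSL in leukemic mice (unadjusted p = 0.00322, adjusted p = 0.0526), and Sp8, at 0.42 ± 0.11 for leukemic minus normal KSL (0.0155 and 0.479). Of 20 cofactors and regulators, all measured, 1 passed as higher and 0 as lower in HSC against KSL of leukemic mice, beside 5.86% of all genes, and 0 passed in the other 4 comparisons. It was Sin3b, a corepressor scaffold related to the Sin3 protein that Klf9 and its relatives bind, at 0.50 ± 0.07 (adjusted p = 0.0353).

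Of 12 reported targets of Klf2 and Klf4, 11 were measured, and these are also regulated by other factors. In HSC against KSL, 1 passed as higher and 2 as lower in normal mice, and 3 as higher and 1 as lower in leukemic mice, beside 1.8% and 5.86% of all genes. The cell cycle gene Ccnd1 was higher in HSC of leukemic mice by 1.08 ± 0.07 (adjusted p = 0.00839). Txnip, a thioredoxin inhibitor, was higher in HSC by 1.86 ± 0.15 (0.012) in leukemic and 1.19 ± 0.15 (0.0435) in normal mice. The interleukin-7 receptor gene Il7r was lower in HSC of normal mice with an adjusted p of 0.0204, but 1 of those arrays was at the floor, as were both HSC arrays of leukemic mice. Cd69, an early activation antigen, was lower in HSC of normal mice, at -3.89 ± 0.38 (0.0265). Limma passed 0 of 11 for leukemic against normal, with 5 in HSC and 4 in KSL at an unadjusted p under 0.05, beside 13.8% and 7.95% of all genes.

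Genes with the pattern most like each member were taken as the 2 with the highest Pearson r over the 8 arrays among 8211 varying genes above the floor. For Klf9 these were Stx17, a syntaxin of autophagosomes, and Sbno2, at r = 0.972 and 0.971. For Klf12 they were Bex4 and the frizzled receptor gene Fzd6, both at 0.984. For Klf3 the second after Klf1 was Men1, the gene of menin (0.972). For Klf10 they were Hnrnph3 (0.980) and Gprc5b (0.980), and for Klf13 Ctbs (0.985) and Uqcrq (0.978). For Klf6 they were Ptp4a3 (0.973) and Lrrc75a (0.949), for Klf4 Ly6d (0.941) and Mfap3 (0.930), for Klf2 Meis3 (0.962) and Prss50 (0.935), and for Klf7 Grhpr (0.934) and Zer1 (0.931). The 8 arrays share 4 groups and 8211 genes were searched, so these values are a description.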

How the data were processed

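RNA of 8 samples was measured on 1 Affymetrix mouse array each. The authors deposited 1 table of log2 values for 45101 probe sets, and the submitters' processing notes name RMA, without a version. No label or header records any other step. No deposited value was below 10.0 in linear units, and 14.9% to 15.8% of each array's probe sets sat at that floor, while array medians were 5.74 to 5.86. The number of arrays limits the precision. The design text names the Nugen Ovation Pico kit and the labelling protocol the standard Affymetrix method, so the amplification is not settled.

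The sample labels of disease and sorted population gave the groups, because the descriptions speak of embryos and the titles of the leukemic KSL samples carry both disease wordings. Probe sets were named through the supplied platform annotation: 34945 had 1 symbol, 932 several, 9160 none, and 64 were controls. RefSeq of GRCm38.p6 served for names and promoter sequences. A limma model (version 3.58.1, R 4.3.3) was fitted to the log2 values of 18193 genes (1 mean per group, all 8 arrays, 4 residual and 0.67 prior degrees of freedom, two-sided, Benjamini-Hochberg adjustment over all genes, threshold 0.05). The test was checked on simulated data. With 2 arrays against 2, an exact permutation test cannot give a p below 0.33. Python 3.11.15 with pandas 2.3.3 and matplotlib 3.10.9 served for tables and plots.

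The members and lists were chosen with earlier results of these data known, and both averaged comparisons were added after the values had been seen. Values of all 9 members are given for each of the 5 planned comparisons. Of the other lists, up to 4 genes that passed are named, or else the 2 with the smallest unadjusted p, and for each member the 2 genes most alike in pattern. Genes of the other cell type lists were used as summed levels. Alternatives were the mean of a gene's probe sets, each probe set, a common median, cyclic loess, 2 filters on dim genes (any array at the floor, lowest 40%), HSC or KSL arrays alone, array weights, a trended robust prior, a male-pattern term, leaving out the male-pattern arrays (Xist under 8), a replicate block and leaving out each array.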

Additional observations from a re-analysis of the deposited data

How the results depend on the processing

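Of 1194 values recomputed, 1096 stayed the same, 9 passed newly, 21 no longer passed, 45 changed sign and 23 moved. The same meant an unchanged direction and side of the threshold. Medians over a gene's probe sets were judged by size alone, as the same within the SE of the fit and otherwise as moved. Their changes of sign are not among the 45, as for Klf4 in leukemic minus normal HSC (0.31 to -0.20). The planned comparisons of leukemic with normal mice and of HSC with KSL differences passed 0 members under every alternative run. Klf12 alone (1) passed for HSC minus KSL in normal mice with the mean of probe sets, beside 478 of 18193 genes, or without genes at the floor, beside 546 of 15489. Klf9 alone (1) passed in leukemic mice with a common median, without genes at the floor or without the lowest 40% of genes, which left 8 members. Of all genes tested, 1213 of 18193, 1211 of 15489 and 1203 of 10916 passed under these settings in turn. For the average of HSC minus KSL, where 2 passed, 1 passed with the mean of probe sets (Klf12), array weights (Klf9) or the male-pattern term (Klf10), and 0 without the male-pattern arrays. For the same average, 1761 of 18193 genes passed in the fit reported. There were 2100 with the mean of probe sets, 1427 with array weights and 1380 with the male-pattern term. Without genes at the floor 3 members passed (Klf9, Klf10 and Klf12), beside 2028 of 15489 genes. Without the lowest 40% of genes, where Klf12 was not tested, 2 members passed (Klf9 and Klf10), beside 1916 of 10916 genes. With the replicate block 0 members passed (Klf9 adjusted p = 0.0503, Klf12 0.0752), beside 1135 of 18193 genes. The block changed no count of members in the other comparisons. Correlations of deviations between same-numbered samples ran from -0.0351 to 0.0873, and the labels tie the numbers to no shared animal or day, although replicate 1 of both normal groups had the male pattern. Leaving out each array gave 0 to 2 passing members, and it assumes that the lone array varies like the other groups. The cause of these changes was not tested.

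Leaving aside medians over a gene's probe sets, changes of sign were confined to 25 results, 0 of which passed in the fit reported. Some medians changed sign too, as for Klf13 in HSC minus KSL of leukemic mice, from -0.66 to 0.31. For leukemic minus normal in HSC, the mean of probe sets gave -0.20 for Klf4 and 0.49 for Klf7, the male-pattern term 0.185 for Klf10, and omitting the male-pattern arrays -0.10 for Klf6 and 0.089 for Klf10. In KSL, omitting them gave 0.37 for Klf12. For the HSC minus the KSL difference, omitting them gave 0.11 for Klf2 and 0.17 for Klf13, and the mean of probe sets -0.23 for Klf9. For HSC minus KSL in normal mice, omitting them gave -0.0805 for Klf2, -0.15 for Klf3 and 0.42 for Klf6, and the mean of probe sets -0.29 for Klf7 and 0.049 for Klf13. In leukemic mice the common median gave -0.0156 for Klf2 and the mean of probe sets -0.24 for Klf4. For the averages, leukemic minus normal was 0.015 for Klf6 with the mean of probe sets and 0.030 for Klf10 with the male-pattern term or without those arrays. Averaged HSC minus KSL was -0.0251 for Klf2 and 0.013 for Klf7 without those arrays, and 0.021 for Klf13 with the mean of probe sets.

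Leaving out each array crossed 0 in these ranges. Leukemic minus normal in HSC ran from -0.10 to 0.72 for Klf6, -0.20 to 0.089 for Klf10 and -0.27 to 0.43 for Klf13, and in KSL from -0.30 to 0.010 for Klf2 and -0.77 to 0.37 for Klf12. The HSC minus the KSL difference ran from -0.41 to 0.12 for Klf2, -0.29 to 0.70 for Klf3, -0.028 to 0.65 for Klf10 and -0.61 to 0.091 for Klf13. HSC minus KSL ran from -0.086 to 0.44 for Klf2, -0.32 to 0.66 for Klf3 and -0.44 to 0.38 for Klf6 in normal mice, and from -0.12 to 0.185 for Klf2 and -2.03 to 0.0055 for Klf7 in leukemic mice. Averaged leukemic minus normal ran from -0.39 to 0.022 for Klf6, and averaged HSC minus KSL from -0.028 to 0.23 for Klf2 and -0.74 to 0.28 for Klf7.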
